A study of Mus musculus with 12 samples.

Results

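The sodium-potassium pump is described here through 6 of its genes in the left atrium (LA) of mice with Notch activation in heart muscle cells. They are the beta subunit genes *Atp1b1*, *Atp1b2* and *Atp1b3* and the FXYD regulator genes *Fxyd1*, *Fxyd5* and *Fxyd6*. Members were picked out by gene name from a table of 54658 gene names, and the set was put together with earlier results of these data known. All 6 were among the 13541 genes with more than 1 CPM (counts scaled to library size) in at least 6 libraries, which were tested.

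Each library came from the LA of 1 mouse. The 6 iNICD mice carried *αMHC-rtTA*, in which a heart muscle promoter drives a doxycycline-dependent transactivator, and *TetO-NICD*, from which the transactivator turns on the intracellular domain of Notch. The 6 Control littermates carried *αMHC-rtTA* alone. Both groups therefore held the transactivator, and both ate doxycycline chow for 3 weeks with no washout, starting at 2 to 3 months of age. There were 4 female and 2 male Control mice and 3 female and 3 male iNICD mice. The transgene acts in cardiomyocytes, whereas the RNA came from whole atrial tissue, so a level here sums over all cells of the LA.

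The pump exchanges intracellular sodium for extracellular potassium at the cost of ATP and so keeps the ion gradients on which the action potential and sodium-calcium exchange depend. It is built from a catalytic alpha subunit and a glycosylated beta subunit, which is needed for folding and for delivery to the plasma membrane. A small FXYD protein can bind the pair and adjust its affinity for ions or its turnover. In heart muscle the main FXYD protein is phospholemman, the product of *Fxyd1*, which restrains the pump until it is phosphorylated under adrenergic drive.

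The FXYD genes are named for a short signature at the outer face of the membrane. The stretch of coding sequence around it is shown for each FXYD gene, because it is the feature that makes them a family. The letters are from GENCODE M21 transcripts, read 5′ to 3′, and the capitals mark the 4 codons of the signature.
*Fxyd1*: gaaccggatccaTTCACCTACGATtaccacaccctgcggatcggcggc
*Fxyd5*: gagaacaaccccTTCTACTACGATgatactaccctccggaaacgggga
*Fxyd6*: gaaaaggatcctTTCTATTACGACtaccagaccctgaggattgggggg

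Of these 48 bases, *Fxyd1* and *Fxyd6* shared 36, *Fxyd5* and *Fxyd6* shared 30, and *Fxyd1* and *Fxyd5* shared 28. The signature began at codon 29 of 92 in *Fxyd1* and at codon 29 of 94 in *Fxyd6*. In *Fxyd5* it began at codon 136 of 185, behind a long extracellular part that the other two lack.

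Positions are on GRCm38 (mm10) from GENCODE M21. *Atp1b1* (ENSMUSG00000026576.12) lies on chr1:164437109-164458355, minus strand, *Atp1b2* (ENSMUSG00000041329.13) on chr11:69599736-69605942, minus strand, and *Atp1b3* (ENSMUSG00000032412.8) on chr9:96332655-96364442, minus strand. *Fxyd5* (ENSMUSG00000009687.14; chr7:31032722-31042481) and *Fxyd1* (ENSMUSG00000036570.14; chr7:31051678-31057199) are near each other on the minus strand, and *Fxyd6* (ENSMUSG00000066705.7) lies on chr9:45370185-45396159, plus strand. Counts are reads over all exons of a gene. *Nme7*, on the opposite strand, shares 575 exonic bases with *Atp1b1*, and the microRNA gene *Mir7050* shares 60 with *Fxyd5*; whether the counting used strand was not stated, so reads in these bases are of uncertain origin.

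Gene counts summed to between 21432632 and 27182038 in each library. *Notch1*, which carries the transgene's sequence, was at 108 to 131 normalized CPM (counts scaled by TMM-adjusted totals) in Control and 2975 to 4077 in iNICD atria, so every library matched its label. Control replicate 5 stood apart from all other libraries on the first principal component, at -77.4, with Control replicate 2 next at -20.2 and the other Control libraries between -5.10 and 7.98. In Control replicate 5, 11.1% of tested genes lay at least 2-fold from the mean of its own group, against 1.17 to 2.84% in the other libraries. Where leaving out a single library changed a call, or moved the log2 fold change or share of a member by over 1.5 times, this is said beside the value. Atrial identity was checked by *Myl2* and *Myl3*, markers of ventricular muscle, whose summed level was 1.28 to 4.51 normalized CPM over the 12 libraries, while 5 cardiomyocyte markers summed to between 43971 and 54315.

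Among the 6 genes, *Atp1b2* and *Fxyd6* rose in iNICD atria and the other 4 did not pass the test. *Atp1b2* was 2.35-fold and *Fxyd6* 1.91-fold higher, and for both every iNICD library lay above every Control library. The dominant beta subunit gene *Atp1b1* and the dominant FXYD gene *Fxyd1* did not pass. Their 95% intervals in log2 units were -0.10 to 0.70 and -0.01 to 0.28, so the size of a change in *Atp1b1* is not settled. Passing genes that were higher, 2 of 6 here, made up 2.78% of all tested genes (edgeR's quasi-likelihood test, Benjamini-Hochberg adjusted p under 0.05), and genes that were lower, 0 of 6 here, made up 1.34%, or 4.12% in either direction. Genes whose iNICD libraries all lay above the Control libraries were 2.58% of those tested, those all below were 1.25%, and both kinds together 3.83%. With DESeq2 the same 2 genes were higher and 0 were lower, against 4.54% and 3.28% of all tested genes. In bulk tissue, fewer cells of a type and less RNA per cell cannot be told apart, and this holds for every difference below.

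**Figure D1:**
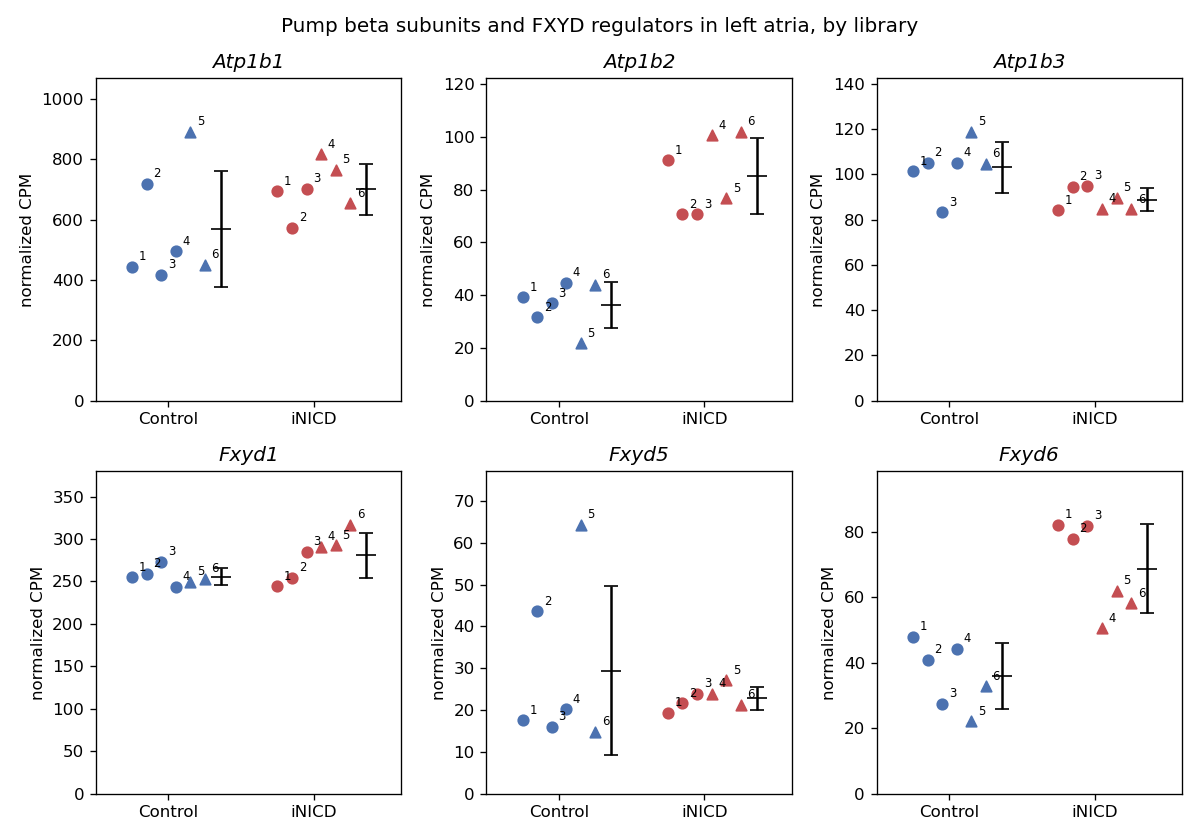
Normalized CPM of each gene (y axis, from 0) in the 6 Control (blue) and 6 iNICD (red) libraries, with the replicate number beside each point, circles for females, triangles for males, and black bars for mean ± SD. The groups are separate for *Atp1b2* (21.7 to 44.6 against 70.6 to 102) and *Fxyd6* (22.1 to 47.8 against 50.4 to 82.0), and Control replicates 2 and 5 stand above the other Control libraries for *Atp1b1* and *Fxyd5*.

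Per kilobase of exon, the order of levels in Control atria was *Atp1b1* at 185 ± 62.4 CPM per kb (SD, n = 6), *Fxyd1* at 117, *Atp1b3* at 43.2, *Atp1b2* at 8.87 ± 2.10, *Fxyd6* at 8.73 and *Fxyd5* at 7.01. The last 3 had overlapping ranges in Control libraries and are not placed in an order by these data. In iNICD atria *Atp1b2* at 20.9 ± 3.54 and *Fxyd6* at 16.7 CPM per kb both had means above that of *Fxyd5* at 5.45. *Atp1b2* nevertheless remained far below *Atp1b1*, at 227 ± 27.6 CPM per kb (SD, n = 6) in the same libraries.

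*Atp1b1* encodes the beta subunit that predominates in heart muscle. It was at 416 (lowest), 473 (median) and 890 (highest) normalized CPM in Control libraries and at 572, 697 and 816 in iNICD libraries. The lowest 4 Control libraries, at 416 to 495, lay below all iNICD libraries, whereas Control replicates 2 and 5, at 720 and 890, lay within or above the iNICD range. Means were 569 ± 192 and 700.3 ± 85.1 (SD, n = 6 per group). The difference of 0.30 in log2 units (SE 0.18, 95% interval -0.10 to 0.70) did not pass the test (edgeR adjusted p = 0.43). Without Control replicate 5 the log2 fold change was 0.47 (edgeR adjusted p = 0.076), more than 1.5 times the value over all libraries, and it too did not pass. A fit without both high Control libraries, chosen after their values were seen and so no independent test, called 4 of the 6 genes higher (*Atp1b1* and *Fxyd5* in addition) and 0 lower, against 4.22% and 2.95% of all tested genes.

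*Atp1b2* encodes a beta subunit best known from glia and neurons, where it also acts as an adhesion molecule. It was at 21.7, 38.0 and 44.6 normalized CPM (lowest, median and highest) in Control libraries and at 70.6, 83.9 and 102 in iNICD libraries. The groups did not overlap, and the lowest Control library was replicate 5. The level rose from 36.3 ± 8.58 to 85.2 ± 14.5 (SD, n = 6 in each group), which is 1.23 in log2 units (SE 0.17, 95% interval 0.87 to 1.59, edgeR adjusted p = 8.09e-04). An exact permutation of the libraries gave p = 0.0022, two-sided, the smallest that 6 against 6 allows. Counts ran from 463 to 2657 per library. The change held with each library left out in turn, with log2 fold changes of 1.12 to 1.30.

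*Atp1b3* encodes the beta subunit found most widely across tissues. It was at 83.2, 105 and 119 normalized CPM (lowest, median and highest) in Control libraries and at 84.2, 87.3 and 94.9 in iNICD libraries. The iNICD libraries lay at the low end of the Control range, and 5 of 6 Control libraries were above all of them. The log2 fold change was -0.22 (SE 0.08, 95% interval -0.38 to -0.05), with an adjusted p of 0.16 in edgeR, so it did not pass across all genes. The exact permutation of the libraries gave p = 0.024, two-sided and not adjusted. For *Atp1b1*, *Fxyd1* and *Fxyd5* the same permutation gave p = 0.16, 0.052 and 0.49. Control replicate 3, at 83.2, was the exception and lay just below the lowest iNICD library, and without it the log2 fold change was -0.27 (edgeR adjusted p = 0.036).

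Taken per kilobase, the make-up of the beta subunit transcripts differed between the groups. The *Atp1b2* share of the length-scaled level of the 3 beta genes was 4.10 ± 1.58% in Control and 7.33 ± 1.15% in iNICD atria (SD, n = 6 per group; exact permutation test, two-sided, p = 0.0022, 0.013 after Benjamini-Hochberg adjustment over 6 shares). The *Atp1b3* share was lower, at 13.2 ± 1.83% against 18.9 ± 3.19% (exact permutation p = 0.0087, adjusted 0.022). The *Atp1b1* share was 77.0 ± 4.72% in Control and 79.5 ± 1.98% in iNICD atria, a difference within the spread of the libraries (exact permutation p = 0.26, adjusted 0.31). The difference of 2.49 percentage points was 3.89 without Control replicate 5 (exact permutation, adjusted p = 0.070) and 1.65 without Control replicate 6 (adjusted p = 0.44). Without Control replicates 2 and 5, left out after their values were seen, it was 5.44 (exact permutation, adjusted p = 0.019), beside 2.25 for *Atp1b2* and -7.69 for *Atp1b3* (adjusted p = 0.019 for both). The summed beta level was 237 ± 64.2 and 285 ± 28.1 CPM per kb (exact permutation p = 0.12). A share falls when another member of the 3 rises, so the shares are not independent of one another.

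**Figure D2:**
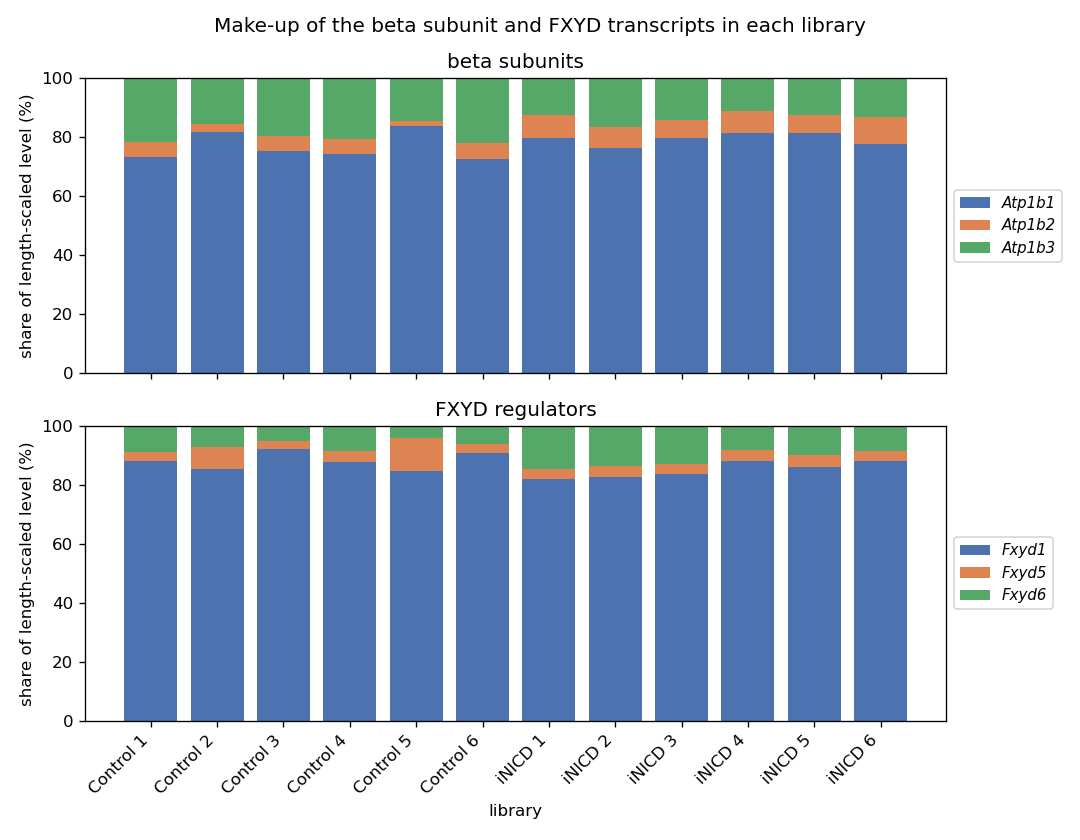
Share of each gene (y axis, percent) in the summed length-scaled level of the beta subunit genes (top) and of the FXYD genes (bottom) in each of the 12 libraries (x axis). The *Atp1b2* share is 1.54 to 5.34% in Control and 6.07 to 9.15% in iNICD libraries, with no overlap, and the *Fxyd6* share is 3.98 to 8.79% against 8.14 to 14.6%.

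*Fxyd1*, the phospholemman gene, was at 244, 254 and 273 normalized CPM (lowest, median and highest) in Control libraries and at 244, 288 and 316 in iNICD libraries. In 4 of 6 iNICD libraries it exceeded all Control values, and the other two fell inside the Control range. Means were 256 ± 10.1 and 281 ± 26.6 (SD, n = 6 in each group). In log2 units the difference was 0.13 (SE 0.07, 95% interval -0.01 to 0.28, edgeR adjusted p = 0.33), which did not pass.

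*Fxyd5* encodes dysadherin, a regulator known for a link to weaker cell adhesion. It was at 14.7, 18.8 and 64.3 normalized CPM (lowest, median and highest) in Control libraries and at 19.3, 22.7 and 27.1 in iNICD libraries. Control replicates 2 and 5 were high, at 43.6 and 64.3, while the other 4 Control libraries, at 14.7 to 20.1, lay below or at the low end of the iNICD range. The log2 fold change was -0.36 (SE 0.34, edgeR adjusted p = 0.62). Its sign rested on 1 library: without Control replicate 5 it was 0.02 (edgeR adjusted p = 0.98), and without Control replicate 2 it was -0.23 (edgeR adjusted p = 0.79), so no direction is given for this gene.

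*Fxyd6* encodes phosphohippolin, a regulator known mainly from brain and inner ear. It was at 22.1, 36.8 and 47.8 normalized CPM (lowest, median and highest) in Control libraries and at 50.4, 69.8 and 82.0 in iNICD libraries. The groups did not overlap, though the highest Control and the lowest iNICD library were close. The level rose from 35.8 ± 10.1 to 68.6 ± 13.6 (SD, n = 6 in each group), which is 0.94 in log2 units (SE 0.19, 95% interval 0.52 to 1.35, edgeR adjusted p = 0.015; two-sided exact permutation p = 0.0022). The 3 female iNICD libraries, at 77.8 to 82.0, were all above the 3 male ones, at 50.4 to 61.8. In Control the female mean, 40.1, was also above the male mean, 27.4, but the ranges overlapped (27.5 to 47.8 and 22.1 to 32.8). The male Control mean is of 2 libraries, 1 of them replicate 5.

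Because Notch acts on transcription, the promoter of *Fxyd6* is shown, from 250 bases before to 50 after the RefSeq start (GRCm38.p6, chr9:45369935-45370234, plus strand).
*Fxyd6* promoter: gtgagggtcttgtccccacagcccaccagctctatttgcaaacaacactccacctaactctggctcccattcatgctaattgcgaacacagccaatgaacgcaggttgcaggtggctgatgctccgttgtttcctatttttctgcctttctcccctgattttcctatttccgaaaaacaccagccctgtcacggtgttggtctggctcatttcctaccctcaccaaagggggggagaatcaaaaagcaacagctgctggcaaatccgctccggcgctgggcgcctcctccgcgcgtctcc

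On either strand, this window held none of TGGGAA, the core bound by RBPJ, the DNA-binding partner of Notch, its longer form GTGGGAA, which contains it, or CACGTG and CACGCG, letters bound by HES and HEY proteins. Of 32851 mouse promoters of that length, 25.6% held TGGGAA, 6.38% GTGGGAA, 7.15% CACGTG and 9.27% CACGCG. Windows were also found for *Atp1b1*, *Atp1b3* (with 2 starts), *Fxyd1* and *Fxyd5*. Among them TGGGAA occurred once, in *Fxyd5*, and CACGTG once, in 1 of the *Atp1b3* windows. A match is only a description of the letters, and no match says only that they are not in that window.

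The FXYD make-up shifted toward *Fxyd6*. Its share of the length-scaled level of the 3 FXYD genes was 6.60 ± 1.91% in Control and 11.2 ± 2.75% in iNICD atria (SD, n = 6 per group; two-sided exact permutation p = 0.011, adjusted 0.022 over 6 shares). Without Control replicates 2 and 5, left out after their values were seen, the difference was 4.11 percentage points and did not pass (exact permutation, adjusted p = 0.063). The *Fxyd1* share was 88.2 ± 3.00% and 85.2 ± 2.73% (exact permutation p = 0.11, adjusted 0.16), and the *Fxyd5* share was 5.22 ± 3.49% and 3.62 ± 0.367% (exact permutation p = 0.43, adjusted 0.43). Without Control replicate 5 the *Fxyd5* difference moved from -1.60 to -0.38 percentage points (exact permutation, adjusted p = 0.89), so no direction is given for this share either. The summed FXYD level was 133 ± 4.75 CPM per kb in Control and 151 ± 10.3 in iNICD atria (exact permutation p = 0.0043).

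**Figure D3:**
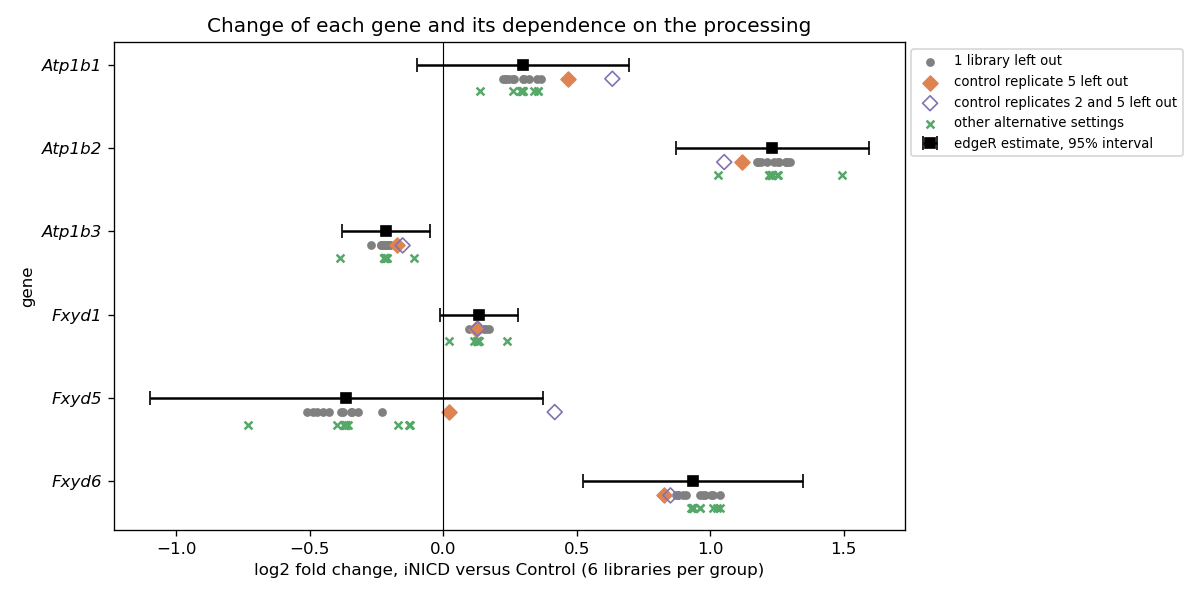
Log2 fold change of iNICD versus Control (x axis) for each gene (y axis), with black squares and bars for the edgeR estimate and its 95% interval, grey points for fits without 1 library, filled diamonds for the fit without Control replicate 5, open diamonds for a fit without Control replicates 2 and 5 (chosen after their values were seen), and crosses for the other alternatives. *Atp1b2* and *Fxyd6* stay to the right of 0 in every fit shown, and *Fxyd5* crosses 0 when Control replicate 5 is left out.

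The change in iNICD atria was also compared between sexes. The interaction of sex and genotype passed for 0 of the 6 genes, as for 0% of all tested genes (edgeR's quasi-likelihood test). *Atp1b2* was 2.04-fold higher in females and 2.84-fold in males, with an interaction of 0.48 on the log2 scale (SE 0.34, edgeR adjusted p = 0.92). *Fxyd6* was 2.01-fold higher in females and 2.07-fold in males (interaction 0.04, SE 0.28, edgeR adjusted p = 0.99). Only 2 Control males were measured, 1 of them replicate 5, so these differences are measured with wide error. The interaction of *Atp1b2* passed without Control replicate 6 (1.04 on the log2 scale, edgeR adjusted p = 0.037), as did 12.7% of all tested genes (1711 of 13482). In that fit replicate 5 is the sole male Control, assumed to vary like the libraries of the other groups. In males alone 0 of the 6 genes passed, and 8 genes in all were higher.

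Levels of several cell type marker lists, among them lists without a call, are given beside the rises of *Atp1b2* and *Fxyd6*. Of 5 smooth muscle and pericyte markers, only *Cspg4* passed, rising from a mean of 46.5 to 172 normalized CPM. *Rgs5* and *Myh11* had log2 fold changes of 0.21 and 0.04, and *Acta2* and *Pdgfrb* of -0.25 and -0.10. The summed level, *Cspg4* included, was 382 to 571 normalized CPM in Control and 565 to 703 in iNICD libraries. Of 5 cardiomyocyte markers *Tnnt2* and *Myl7* fell, and the sum was 50153 to 54315 in Control and 43971 to 51925 in iNICD libraries. Of 5 erythroid markers 0 passed, with sums of 59.4 to 247 and 27.1 to 138. The 5 Schwann cell markers, 4 of them tested and 0 called, summed to 57.5 to 74.1 in Control and 55.9 to 65.4 in iNICD libraries. The 5 neuron markers, 1 of them tested and 0 called, summed to 3.56 to 10.3 and 3.16 to 8.80. No marker in these lists was at 0 in all libraries. The 4 epicardial markers, all tested and 0 called, had lower means in iNICD atria, with a median log2 fold change of -0.30. Their sums were 196 to 258 in Control and 124 to 239 in iNICD libraries. Fibroblast, endothelial, leukocyte, adipocyte and ventricular lists had 0 calls. The part of any of these cell types in the rises was not tested.

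For *Atp1b1* and *Fxyd5*, high in Control replicates 2 and 5, the endothelial marker sum was 818 and 957 normalized CPM in these libraries and 635 to 712 in the other 4 Control libraries. The smooth muscle and pericyte sum was 509 and 571 against 382 to 482, and the neuron sum 10.3 and 6.32 against 3.56 to 4.03. In the other 8 marker lists these libraries were not the highest 2 of the Control group. Whether any of this bears on the levels of *Atp1b1* and *Fxyd5* was not tested.

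The 6 genes did not vary as one. Deviations from the group means over the 12 libraries, on the log2 scale, had a Pearson correlation of 0.94 for *Atp1b1* and *Fxyd5*, -0.78 for *Atp1b2* and *Fxyd5*, and 0.26 for *Atp1b2* and *Fxyd6*. Without Control replicate 5 these were 0.89, -0.56 and -0.26. They describe these libraries, which share a normalization.

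Among 9371 genes with a mean of at least 10 normalized CPM, those whose log2 CPM followed each gene most closely over the 12 libraries were *Ramp1* (r = 0.99) and *Itm2c* (r = 0.99) for *Atp1b2*, and *Masp1* (r = 0.96) and *Tap2* (r = 0.94) for *Fxyd6*. All of these rose in iNICD atria, so the group difference is part of each r. For *Fxyd5* they were *Arpc1b* and *Csrp3* (r = 0.98 for both), and for *Atp1b1* *Ergic1* and *Myom1* (r = 0.96 for both). *Csrp3*, a muscle stretch-response gene, was at 2075 and 3678 normalized CPM in Control replicates 2 and 5 and at 1059 to 1572 in iNICD libraries. The lowest Control library was at 745, below the iNICD range. Without Control replicates 2 and 5, r with *Fxyd5* was 0.86 for *Arpc1b* and 0.92 for *Csrp3*. For *Atp1b3* they were *Tmod3* (r = 0.93) and *Tbc1d10b* (r = 0.92), and for *Fxyd1* *Sirt3* (r = 0.92) and *Selenow* (r = 0.89).

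Genes that work beside the pump were followed in 5 lists. Of 9 tested sodium- and chloride-coupled transporters, 1 rose and 0 fell, with a median log2 fold change of 0.09 against -0.01 over all tested genes. *Slc8a2*, a sodium-calcium exchanger known mainly from brain, rose from 2.28 to 6.74 normalized CPM (log2 fold change 1.56 with SE 0.17, edgeR adjusted p = 1.82e-04), and all iNICD libraries, at 4.98 to 8.82, were above the Control range of 1.82 to 2.82. *Slc8a1*, the main cardiac sodium-calcium exchanger, was at 449 to 1177 in Control and 452 to 740.0 in iNICD libraries (edgeR adjusted p = 0.81), with Control replicates 2 and 5 again highest, at 1060 and 1177. *Slc4a3*, *Slc12a7* and *Slc12a4* had log2 fold changes of -0.20, 0.33 and 0.09 and did not pass. Without Control replicate 5 *Slc12a7* did, which made 2 higher transporters. That fit called 486 of 13499 tested genes higher and 310 lower, against 377 and 181 of 13541 over all libraries.

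Of 9 tested anchoring and trafficking genes, 1 rose and 0 fell (median 0.01). *Ank3*, which encodes ankyrin-G, an adaptor that ties membrane proteins to spectrin, was higher by 0.34 in log2 units (SE 0.07, edgeR adjusted p = 0.020), with 147 to 189 normalized CPM in Control and 192 to 230 in iNICD libraries. The call was lost without Control replicate 1, iNICD replicate 1 or iNICD replicate 4. *Sptbn1*, *Ank1*, *Cav1*, *Cavin1* and *Sptan1*, the most abundant of the rest, had log2 fold changes of -0.14 to 0.08.

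Of 18 tested kinases, phosphatases and hormone receptors that act on the pump or on phospholemman, 0 rose and 0 fell (median 0.05). DESeq2 called *Wnk1* higher and *Sgk1* lower, a pair named after their values were seen. In edgeR *Wnk1* passed without Control replicate 5, where 486 of 13499 tested genes were higher. *Sgk1* passed without Control replicate 6, where 197 of 13482 were lower. Over all libraries *Wnk1*, a kinase of ion transport control, had a log2 fold change of 0.20 (edgeR adjusted p = 0.078) and *Sgk1*, a kinase that promotes membrane delivery of transporters, of -0.84 (edgeR adjusted p = 0.11). *Ppp1cb*, *Prkaca*, *Ppp2ca*, *Ppp1ca* and *Thra*, the most abundant of the rest, were between -0.16 and 0.32 and did not pass.

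Of 7 listed pump-interacting and H/K-ATPase genes, 2 were tested, *Nkain4* (log2 fold change -0.19) and *Nkain1* (-1.30, edgeR adjusted p = 0.086), and 0 passed in edgeR. DESeq2 called *Nkain1* lower. Of 5 other beta subunit and FXYD genes, 3 were tested and 0 passed. *Fxyd3* and *Fxyd7* were at 1.26 and 1.70 normalized CPM in Control atria, *Atp1b4* had at most 2 counts in any library, and *Fxyd4* had 0 counts in all.

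**Figure D4:**
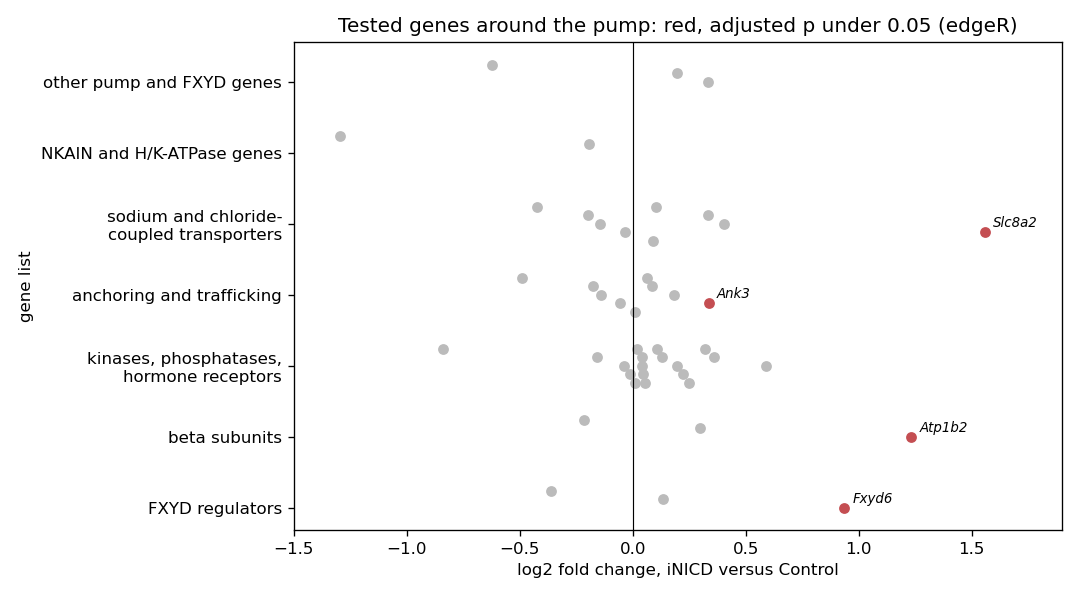
Log2 fold change of iNICD versus Control (x axis) for each tested gene of the lists (y axis; offsets within a list carry no value), with genes past an edgeR adjusted p of 0.05 in red and named. Red points are *Slc8a2* (1.56), *Atp1b2* (1.23), *Fxyd6* (0.94) and *Ank3* (0.34), all to the right of 0.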

How the data were processed

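LA libraries were made by the authors after ribosomal RNA depletion. The deposited table holds raw read counts per gene name, with no normalization, and a gene length in bases. The submitters' processing notes name cutadapt, STAR 2.4.2a, Subread featureCounts and edgeR on mm10; which route made the table is not given in the sources used here. A single count table therefore carries any multi-mapping or strand choice of the authors.

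Groups, replicate numbers and sexes came from sample titles and descriptions. All 30 within-group pairs of libraries differed beyond sampling noise (lowest chi-square per gene 16.7). The labels call libraries biological replicates, each from 1 mouse.

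Genes above 1 CPM in 6 or more libraries were compared by the quasi-likelihood test of edgeR 4.0.16 (R 4.3.3; TMM normalization, two-sided, Benjamini-Hochberg over 13541 genes, threshold 0.05), with 95% intervals from its degrees of freedom. Library totals were 21432632 to 27182038 counts, and normalized CPM divide by these totals after TMM adjustment. Intervals and p-values cover the spread between mice. Shares used counts divided by the deposited length and exact permutation over 924 splits. Correlations used log2 CPM with a prior count of 2. On simulated counts for this comparison (13401 genes, 50 changed at each fold), 46 genes at 0.5-fold, 32 at 1.5-fold, 47 at 2-fold and 50 at 4-fold were recovered, with 8 false calls.

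Alternatives were DESeq2 1.42.0, the edgeR exact test, other normalizations and filters, a sex term, a replicate block, each sex alone, each library left out and counts without mitochondrial genes; a fit without Control replicates 2 and 5 was added after their values were seen. All 6 members are named, with up to 6 genes per list (those that passed, then the most abundant), 2 nearest genes per member, and *Notch1*. *Sgk1* was named in addition, because DESeq2 called it lower. Members and lists were chosen with earlier results of these data known. Promoters are from RefSeq (GRCm38.p6), where 5 of 6 members matched; *Atp1b2* did not. The catalytic alpha subunits and some other listed genes are not reported here, and right atria and human nuclei were not analysed here.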

Additional observations from a re-analysis of the deposited data

How the results depend on the processing

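The rises of *Atp1b2* and *Fxyd6* kept their direction in every alternative run and passed in all but the comparison of males alone, in which 0 members passed (*Atp1b2* 1.49, adjusted p = 0.51; *Fxyd6* 1.04, adjusted p = 0.48) among only 8 higher genes in all. Leaving out 1 library gave 1.12 to 1.30 for *Atp1b2* and 0.83 to 1.04 for *Fxyd6*, with 2 members higher in all such fits and 0 to 1 lower, the 1 being *Atp1b3* without Control replicate 3. The same fits gave 0.22 to 0.47 for *Atp1b1*, -0.27 to -0.17 for *Atp1b3*, 0.10 to 0.17 for *Fxyd1* and -0.51 to 0.02 for *Fxyd5*, whose sign reversed (to 0.022) without Control replicate 5.

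Control replicates 2 and 5 were left out together after their levels of *Atp1b1* and *Fxyd5* had been seen, so this fit describes the dependence on them and is no independent test. In it 4 members were higher, against 4.22% of tested genes, namely *Atp1b2*, *Fxyd6*, *Atp1b1* (0.63, edgeR adjusted p = 0.0020) and *Fxyd5* (0.42, reversed, edgeR adjusted p = 0.041). The cause of the high values in these 2 libraries was not tested. Shares without them were higher in iNICD by 5.44 percentage points for *Atp1b1* (exact permutation, adjusted p = 0.019), 0.50 for *Fxyd5* (reversed; adjusted p = 0.11) and 4.11 for *Fxyd6* (adjusted p = 0.063).

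In females alone (4 against 3, smallest exact permutation p 0.029 before adjustment) share differences were 2.60 points for *Atp1b2* (adjusted p = 0.086), -5.00 for *Atp1b3* (0.13) and 6.29 for *Fxyd6* (0.086). With 1 library left out they were 2.72 to 3.48, -6.61 to -5.13 and 3.94 to 5.24.

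Same-numbered libraries deviated together with a mean correlation of 0.12 (-0.15 to 0.37) by title number and 0.14 (-0.11 to 0.37) by description number, so not every pair was over 0.1 and the numbers were not taken to pair the mice. A replicate block left the member calls in place (*Atp1b2* 1.25, *Fxyd6* 0.96) and gave 0 higher anchoring genes, so that the call of *Ank3* was lost. Leaving out 1 library gave 1 to 2 higher transporters, 0 to 1 higher anchoring genes, 0 to 1 higher and 0 to 1 lower kinase-list genes, and 0 to 1 members with a sex interaction, the 1 being *Atp1b2* without Control replicate 6 (1.04, edgeR adjusted p = 0.037), where replicate 5 is the sole male Control and 12.7% of all tested genes passed. DESeq2 gave 1 higher and 1 lower gene in the kinase list and 1 lower pump-interacting gene, and the fit without Control replicates 2 and 5 gave 1 higher kinase-list gene and 2 higher transporters. On simulated counts 32 of 50 genes changed 1.5-fold were recovered, and smaller changes were not simulated.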
